A study of Mus musculus with 16 samples.

Results

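The genes described here encode ion channels and neurotransmitter receptors: potassium, sodium and calcium channels, GABA-A and glycine receptors, glutamate receptors, and receptors for acetylcholine, serotonin and dopamine. They were chosen by gene symbol alone (Kcn, Scn, Cacn, Gabr, Gria, Grid, Grik, Grin, Grm, Chrn, Chrm, Htr, Drd, Glra and Glrb), with no measured value in the rule. The rule found 162 genes of 15739 with a peak, and 299 peaks of 29470. The symbols also caught Grid2ip, Grin1os, Kcnmb4os1 and Kcnq1ot1, which do not encode channel or receptor subunits and were kept because the rule holds them.

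The measurement was chromatin immunoprecipitation and sequencing for H3K4me2, histone H3 dimethylated at lysine 4, a mark of promoters and enhancers. Cells came from the thymus of C57BL/6 mice and were sorted as CD45-negative, Epcam-positive medullary thymic epithelial cells (mTEC). Each population had 2 libraries: mTEC-I was gated as MHCII-low and Itgb4-positive, mTEC-II as MHCII-high, mTEC-III as Ly6D-positive, and mTEC-IV as MHCII-low, Itgb4-negative and L1cam-positive. The study asked how the enhancer landscape differs among these subpopulations. Nothing in the labels ties a replicate to its own mouse, so the tests speak only to the scatter among these libraries, which may be technical. In sorted bulk cells, fewer cells carrying a mark and less mark per cell cannot be told apart.

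Voltage-gated channels open and close with the membrane potential, inward rectifiers and two-pore-domain channels hold potassium conductance at rest, and ligand-gated receptors open a pore when a transmitter binds. Muscarinic, dopamine, metabotropic glutamate and most serotonin receptors instead signal through G proteins. Most of these genes are known from nerve and muscle, and medullary thymic epithelium is known to express many genes otherwise restricted to other organs, which thymocytes are screened against.

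The sequences below are examples: these 7 genes are among those with the larger changes described later, and each has a peak lying over the gene start. Each is the 200 bases before the start, 5′ to 3′ on the gene's strand, from RefSeq on build GRCm38.p6, with every CpG in capitals. The peaks are on build mm9, so the coordinates in these lines are not those of the peaks.
Kcnk1, chr8:125994902-125995101, plus strand: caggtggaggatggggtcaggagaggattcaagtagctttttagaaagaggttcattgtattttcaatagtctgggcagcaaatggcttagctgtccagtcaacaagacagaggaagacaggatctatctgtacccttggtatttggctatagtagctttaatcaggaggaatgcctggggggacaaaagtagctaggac
Gabrp, chr11:33578958-33579157, minus strand: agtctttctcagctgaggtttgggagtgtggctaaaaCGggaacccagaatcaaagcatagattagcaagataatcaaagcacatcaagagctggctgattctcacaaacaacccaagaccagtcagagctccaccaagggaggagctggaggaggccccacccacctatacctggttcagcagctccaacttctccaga
Scn9a, chr2:66634963-66635162, minus strand: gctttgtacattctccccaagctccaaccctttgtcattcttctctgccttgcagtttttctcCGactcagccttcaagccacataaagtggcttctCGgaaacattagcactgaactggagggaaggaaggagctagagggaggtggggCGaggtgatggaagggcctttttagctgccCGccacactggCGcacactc
Htr1f, chr16:65105785-65105984, minus strand: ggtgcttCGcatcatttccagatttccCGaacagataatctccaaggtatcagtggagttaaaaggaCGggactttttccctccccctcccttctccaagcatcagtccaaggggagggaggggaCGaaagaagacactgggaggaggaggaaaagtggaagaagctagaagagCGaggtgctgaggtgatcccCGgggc
Kcnj5, chr9:32344345-32344544, minus strand: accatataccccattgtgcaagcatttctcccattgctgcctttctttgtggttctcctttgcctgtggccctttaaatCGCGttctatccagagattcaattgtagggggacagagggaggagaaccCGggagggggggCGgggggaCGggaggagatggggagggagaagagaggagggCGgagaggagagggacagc
Drd4, chr7:141291818-141292017, plus strand: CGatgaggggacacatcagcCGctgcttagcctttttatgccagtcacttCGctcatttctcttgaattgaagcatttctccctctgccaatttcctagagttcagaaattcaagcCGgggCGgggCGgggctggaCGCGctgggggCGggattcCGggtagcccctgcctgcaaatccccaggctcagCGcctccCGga
Kcns1, chr2:164171114-164171313, minus strand: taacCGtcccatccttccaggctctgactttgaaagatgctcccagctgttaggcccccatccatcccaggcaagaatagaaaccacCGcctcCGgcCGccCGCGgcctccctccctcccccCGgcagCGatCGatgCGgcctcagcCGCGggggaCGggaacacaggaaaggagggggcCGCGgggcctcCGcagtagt
The stretch before Kcnk1 held 0 CpG and that before Gabrp 1, while Kcns1 held 16 and Drd4 12.

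The libraries held from 1702103.5 to 15412132.5 tags. The shallowest was mTEC-I replicate 2, in which a single tag is worth 5.88 units and 3 tags, the most that a count of 0 allows, are worth 17.6. In the other libraries that floor ran from 1.95 to 4.64. Floors cover counting error only. Levels are tags per 10000000 tags of a library, and each gene carries the total of its annotated peaks. All 13 listed epithelial markers had peaks, and 1 of 12 thymocyte markers did (Bcl11b). The 22 measured tuft cell markers were all called higher in mTEC-IV, with summed levels of 13251 and 13751 there against 2825 to 3248 in the other 6 libraries. Of them 7 were called lower in mTEC-III, 7 in mTEC-I and 1 in mTEC-II.

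Channel and receptor genes differed among the 4 populations more often than genes at large, and the direction was uneven, with most lower calls in mTEC-III and most higher calls in mTEC-IV. A limma F test found a difference at 123 of the 162 genes, or 75.9%, beside 54.2% of all 15738 genes tested. For a direction, a gene was called where limma's adjusted p against the mean of the other 3 populations was under 0.05 and both libraries lay beyond all 6 others. All 162 genes passed the filter on low values. In mTEC-III 48 were called lower (29.6%, beside 10.7% of all genes) and 6 higher (3.70%, beside 8.33%). In mTEC-IV 43 were called higher (26.5%, beside 16.3%) and 12 lower (7.41%, beside 8.06%). In mTEC-II 19 were called higher (11.7%, beside 5.21%) and 4 lower (2.47%, beside 5.97%). In mTEC-I the calls sat closer to the background, with 22 higher (13.6%, beside 11.7%) and 23 lower (14.2%, beside 10.4%).

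A peak that only 1 population's list holds entered the table through that population, so its direction is in part given by how the table was made. This holds for the single peaks of Cacna2d4, Chrna10, Glra2 and Kcnh5, for the peak over the start of Gabrp, and for the strongest mTEC-IV peaks away from the start of Kcnq3, Kcnj2 and Kcnab2. Further examples in mTEC-IV are both mTEC-IV peaks of Cacna1c and the Cacnb4 start peak that is high there. In mTEC-II they include the peaks of Cacng7, Gria4, Grik3 and Glra3, and distal peaks of Grik2 and Grm7. Among the members' peaks 61 were in the mTEC-IV list alone, 55 in the mTEC-II list alone (18.4%, beside 15% of all peaks) and 12 in the mTEC-III list alone (4.01%, beside 4.77%). Over peaks, 213 of 299 differed (71.2%), beside 58.2% of all 29469. Higher calls numbered 31 in mTEC-I (beside 9.87% of all peaks), 37 in mTEC-II (7.42%), 13 in mTEC-III (7.98%) and 88 in mTEC-IV (20%). Lower calls numbered 49 in mTEC-I (14.6%), 8 in mTEC-II (3.85%), 63 in mTEC-III (9.23%) and 25 in mTEC-IV (9.62%). The peaks' shares of 21.1% lower in mTEC-III and 29.4% higher in mTEC-IV stood above these backgrounds. Single libraries moved several of these counts. The 63 was 25 without mTEC-III replicate 1, beside 4.11%, and the 88 was 53 and 42 of 283 without mTEC-IV replicate 1 and 2, beside 11.6% and 10.6%. The 37 was 9 and 7 of 298 without mTEC-II replicate 1 and 2, beside 0.985% and 1.02%. The 13 was 7 and 8 without mTEC-III replicate 1 and 2, beside 3.53% and 3.68%. The 49 was 89 without mTEC-I replicate 1, beside 24.7%. The 8 lower in mTEC-II became 14 without mTEC-I replicate 2, beside 7.48%, and 5 or 4 (beside 2.85% and 2.80%) where the second library of mTEC-III or mTEC-IV was left out.

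The median log2 change of the members in mTEC-III was -0.33, beside 0.01 over all genes. It was 0.13 beside 0.02 in mTEC-IV, 0.07 beside -0.09 in mTEC-II and 0.02 beside 0.04 in mTEC-I. mTEC-III had the lowest mean of the 4 populations at 78 of the 162 genes and the highest at 14. One library carried part of the mTEC-III count: without mTEC-III replicate 1 it was 30, beside 6.68% of all genes. The higher count in mTEC-II fell to 8 without either mTEC-II library, beside 2.04% and 1.89% of all genes, and the lower count to 2 without replicate 2. Without mTEC-I replicate 2 the higher count in mTEC-I was 37, beside 13.4%, and without mTEC-I replicate 1 the lower count was 40, beside 18.9%.

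**Figure D1:**
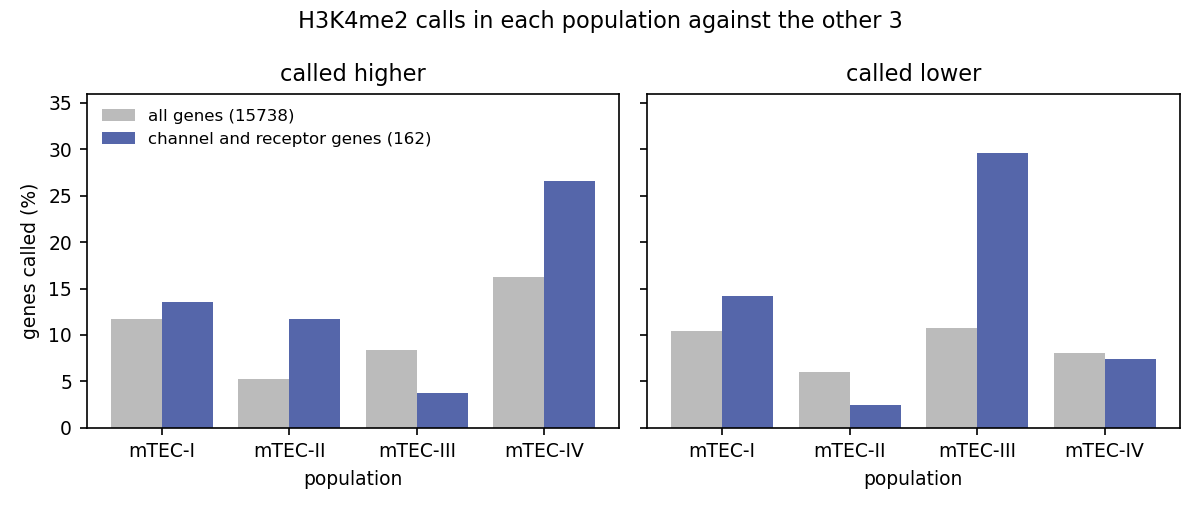
Share of genes (%) called higher (left) or lower (right) in each population against the other 3, for the 162 channel and receptor genes (blue) and all 15738 genes tested (grey). The blue bar stands furthest above the grey one for lower calls in mTEC-III, 29.6% against 10.7%.

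**Figure D2:**
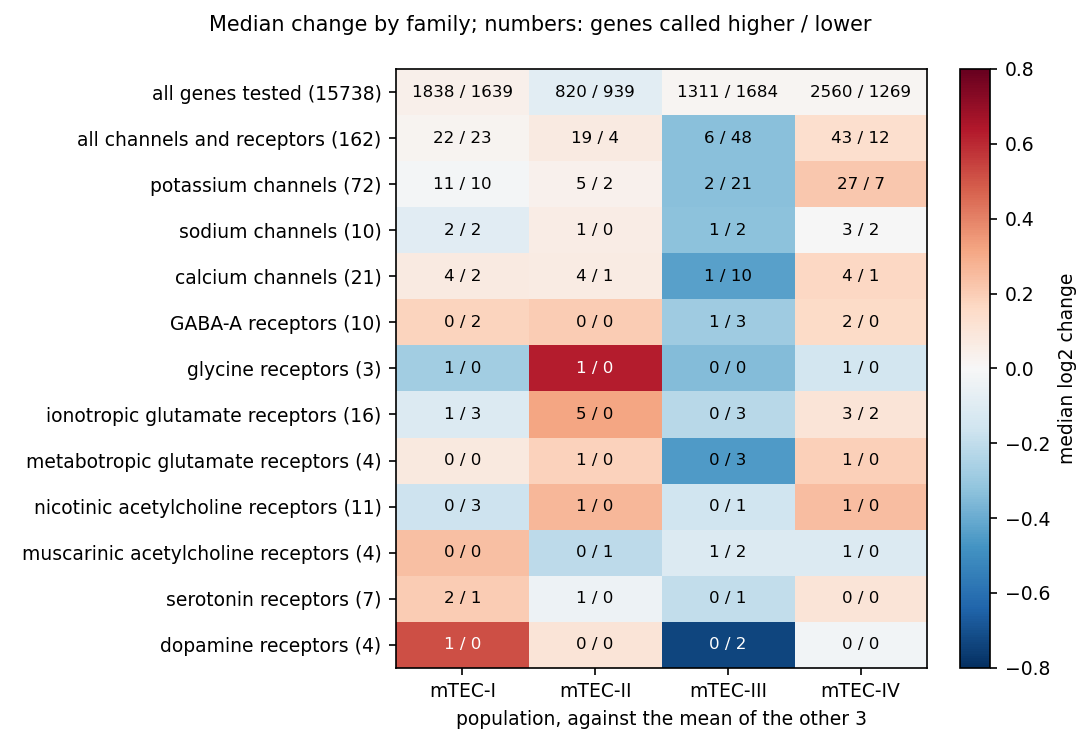
Median log2 change (colour) of each family in each population against the mean of the other 3, with the number of genes called higher / lower written in each cell and the number of genes after each name. The mTEC-III column is blue for all 11 families, and mTEC-IV has 27 of 72 potassium channel genes called higher.

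Potassium channels made up 72 of the genes, and most of the mTEC-IV calls were theirs: 27 were called higher in mTEC-IV and 7 lower, and 21 were called lower in mTEC-III and 2 higher. With peaks within 1 kb of a start alone the 27 became 15. That setting leaves fewer member genes, and the share of all genes called higher in mTEC-IV falls under it too. The tuft cell markers described above were high in the same libraries, and their part in these calls was not tested. Among the 32 voltage-gated genes 16 were called higher in mTEC-IV and 1, Kcnc4, lower, with a median log2 change of 0.52. Those 16 included Kcnq1 and Kcnq3, subunits of slowly activating channels. Kcnq1 stood at 664 and 623 in mTEC-IV and between 241 and 349 in the other 6 libraries. Its mTEC-IV libraries lay above all others, with a log2 change of 1.14 ± 0.08 (SE, limma adjusted p = 3.53e-08).

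Kcns1, a silent subunit that modifies other voltage-gated channels, had its single peak over the start, and the mTEC-IV list alone holds it. It read 65.4 and 83.6 in mTEC-IV beside 14.7 to 27.4 elsewhere, a log2 change of 1.90 ± 0.27 (limma adjusted p = 4.58e-05). Both mTEC-IV libraries stood clear of all others, and the other 3 populations lay close together. Kcns3, also a silent subunit, was high in mTEC-IV (251 and 248) and mTEC-I (216 and 229), lower in mTEC-II (122 and 115) and lowest in mTEC-III (82.0 and 84.2). Kcnh5, an ether-a-go-go channel, had 1 weak distal peak at 20.9 and 31.1 in mTEC-IV beside 0 to 4.44 elsewhere. Many of those values are near the floor of 3 tags.

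Of 11 inward rectifier genes 4 were called higher in mTEC-IV and 4 lower in mTEC-III. Kcnj5, a subunit of G protein-gated channels, read 346 and 372 in mTEC-IV, 134 and 125 in mTEC-II, then 51.8 and 67.6 for mTEC-I and 30.9 and 46.5 for mTEC-III. The 4 populations did not overlap. Its log2 change was 2.42 ± 0.16 in mTEC-IV (limma adjusted p = 1.50e-08) and fell by 1.86 ± 0.16 in mTEC-III (adjusted p = 1.05e-06). Both Kcnj5 peaks were called higher in mTEC-IV. The mTEC-IV list alone holds the one 32.73 kb downstream, so the size of the summed mTEC-IV change is in part given. Kcnj3, which pairs with Kcnj5 in the heart, had another pattern: 120 and 88.1 in mTEC-I beside 286 to 375 in the other 3 populations. Kcnj8, the pore of an ATP-sensitive channel of vessels, was highest in mTEC-I at 69.6 and 76.4, and Kcnj11, the pore of the islet form, was high in mTEC-IV (235 and 253) and mTEC-II (231 and 224). Kcnj2, which sets resting potential in muscle, had 10 peaks and summed to 1295 and 1348 in mTEC-IV beside 679 to 771 elsewhere.

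Of 9 two-pore-domain genes, 4 were called higher in mTEC-I, 3 higher in mTEC-IV and 4 lower in mTEC-III, the last of which was 2 without mTEC-III replicate 1. Kcnk1 read 140 and 150 in mTEC-I, 108 and 118 in mTEC-IV, 60.0 and 60.7 in mTEC-II, and 39.7 and 47.7 in mTEC-III, again with no overlap between populations. Kcnk6, of the same TWIK group, ran the other way: 382 and 442 in mTEC-III, 349 and 371 in mTEC-II, 238 and 288 in mTEC-I, and 183 and 187 in mTEC-IV. Among 7 calcium- and sodium-activated genes 3 were called higher in mTEC-I and 4 lower in mTEC-III. Kcnn3, a small-conductance channel, read 349 and 258.5 in mTEC-I beside 77.0 and 71.8 in mTEC-III, and changed by 1.29 ± 0.13 and -1.37 ± 0.13 on the log2 scale in these 2 populations. The fibroblast markers moved in part with this pattern. Of 8 measured of 11 listed, 5 were called higher and 1 lower in mTEC-I, 3 lower in mTEC-III and 2 higher in mTEC-IV. Their sums were 966 and 1063 in mTEC-I, 444 and 495 in mTEC-III and 624 to 758 elsewhere. Their part in these results was not tested.

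Auxiliary subunits were mixed, with 3 of 11 called higher in mTEC-IV and 3 lower. Kcnab2, a cytoplasmic beta subunit of Shaker-type channels, read 235 and 274 in mTEC-IV beside 80.1 to 120 elsewhere. Kcnab1, its close relative, was low there: 8.80 and 9.56 beside 24.8 to 44.1 in the other libraries, a fall of 1.71 ± 0.31 on the log2 scale (limma adjusted p = 4.41e-04). The count of auxiliary subunits called lower in mTEC-IV was 1 without mTEC-IV replicate 2.

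**Figure D3:**
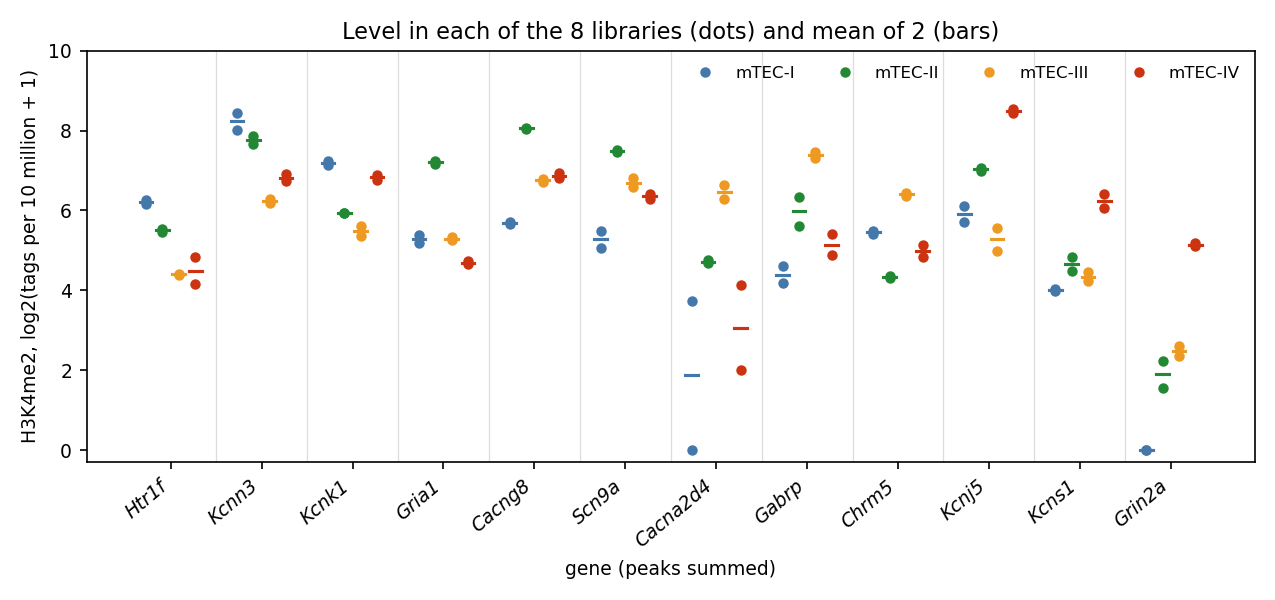
H3K4me2 level of 12 genes in each library, on a log2(tags per 10000000 + 1) axis, with dots for libraries and short bars for the mean of 2. Kcnj5, Kcns1 and Grin2a are highest in mTEC-IV, Cacna2d4, Gabrp and Chrm5 in mTEC-III, Gria1, Cacng8 and Scn9a in mTEC-II, and Htr1f, Kcnn3 and Kcnk1 in mTEC-I.

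Sodium channel genes split by neighbour. Of 10 genes 9 passed the F test, and 4 of these lie near each other on chromosome 2: Scn3a, Scn2a1, Scn1a and Scn9a, which encode pore subunits. Scn2a1 read 226 and 196 in mTEC-IV beside 35.3 to 67.8 elsewhere, a log2 change of 1.87 ± 0.18 (limma adjusted p = 5.43e-07), and Scn3a was also called higher in mTEC-IV at 205 and 213. Scn1a, between them and Scn9a, was called higher in mTEC-I at 180 and 194 beside 107 to 146 elsewhere. Scn9a, the channel of pain-sensing neurons, was called higher in mTEC-II: 180 and 177 there, 94.6 and 112 in mTEC-III, 84.7 and 77.1 in mTEC-IV, and 32.5 and 44.1 in mTEC-I. So 3 different populations were highest within this stretch of related genes. The beta subunits Scn2b and Scn4b, neighbours on chromosome 9, were both called lower in mTEC-IV. Scn2b read 59.4 and 25.1 there beside 88.1 to 153 elsewhere, and Scn4b was in addition called higher in mTEC-III at 325 and 341.

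Of 21 calcium channel genes 10 were called lower in mTEC-III, the largest share among families of more than 4 genes, a count that was 4 without mTEC-III replicate 1. Cacna2d3, an alpha2-delta subunit, read 106 and 105 in mTEC-III beside 158 to 214 elsewhere, and Cacna1i, a T-type pore, 16.4 and 26.5 beside 34.6 to 82.0. The sister subunit Cacna2d4 was the exception. It read 97.8 and 77.7 in mTEC-III, 24.7 and 25.9 in mTEC-II, 16.5 and 2.99 in mTEC-IV, and 12.4 and 0 in mTEC-I. Its mTEC-III call was lost without either mTEC-III library (limma adjusted p = 0.098 and 0.058). Cacna1c, the L-type pore of heart and smooth muscle, was called higher in mTEC-IV, at 486 and 458 beside 191 to 284 elsewhere. In mTEC-II the neighbours Cacng7 and Cacng8, which act as AMPA receptor partners, were both called higher. The mTEC-II list alone holds the Cacng7 peak and the Cacng8 peak 2.25 kb upstream, so their direction is in part given. Cacng8 read 267 and 263 in mTEC-II beside 49.9 to 122 elsewhere, a log2 change of 1.61 ± 0.12 (adjusted p = 1.56e-06), and Cacng7 read 71.0 and 75.9 beside 23.6 to 51.8. The Cacng7 call was lost without either mTEC-II library (adjusted p = 0.072 and 0.096).

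Glutamate receptors were the receptors with most calls in mTEC-II. Of 16 genes in the ionotropic family 5 were called higher there (Gria1, Gria4, Grik2, Grik3 and Grin2c), a count that was 1 without mTEC-II replicate 1 and 2 without replicate 2. Gria1, a pore subunit of AMPA receptors, read 143 and 150 in mTEC-II, with mTEC-I at 35.6 and 41.1, mTEC-III at 39.1 and 37.1, and mTEC-IV at 24.2 and 25.7. Its log2 change of 2.11 ± 0.19 (limma adjusted p = 4.32e-06) came from 1 peak, which the mTEC-II list alone holds, in intron 2, 162 kb from the start, at chr11:56986270-56990656. Grin2a, an NMDA receptor subunit, had its highest values in mTEC-IV. It read 35.2 and 33.5 there, 0 in both mTEC-I libraries and 1.95 to 5.05 in mTEC-II and mTEC-III. Its peak, which the mTEC-IV list alone holds, lay in intron 3, 312 kb from the start, and values under the floor of 3 tags cannot be told from 0. Of 4 metabotropic receptor genes, coupled to G proteins, 3 were called lower in mTEC-III. Grm4 read 82.0 and 118 in mTEC-III beside 162 to 178 elsewhere, and Grm7 was called higher in mTEC-II at 167 and 157.

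GABA-A receptor genes, subunits of chloride channels gated by GABA, had 1 gene called higher in mTEC-III. Gabrp, the pi subunit known outside the nervous system, read 175 and 158 in mTEC-III, 47.7 and 80.3 in mTEC-II, 41.2 and 28.7 in mTEC-IV, and 17.0 and 23.5 in mTEC-I. Both mTEC-III libraries lay above all others, with a log2 change of 2.22 ± 0.23 (limma adjusted p = 5.94e-06). Of the other 9 genes 3 were called lower in mTEC-III. Gabrb2 was one of these, at 56.8 and 77.7, and was also called higher in mTEC-IV at 235 and 240. Of its 3 peaks, the 2 called higher in mTEC-IV lie 24.49 and 33.0 kb downstream. The mTEC-IV list alone holds them, so that direction is in part given. Of the 3 glycine receptor genes 1 each was called higher in mTEC-I (Glrb), mTEC-II (Glra3) and mTEC-IV (Glra2). Glra2 read 49.5 and 40.6 in mTEC-IV beside 5.88 to 29.2 elsewhere, from 1 peak in intron 2.

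Acetylcholine receptor genes fell into nicotinic subunits, which form ion channels, and muscarinic receptors. Of 11 nicotinic genes 6 passed the F test (54.5%), close to the 54.2% of all genes. Chrna10, known from cochlear hair cells, was called higher in mTEC-IV: 45.6 and 40.6 there, 17.2 and 21.5 in mTEC-II, and 5.88 to 10.1 in mTEC-I and mTEC-III. Chrnb2 was called higher in mTEC-II at 71.0 and 62.6. Of the 4 muscarinic genes Chrm3 and Chrm4 were called lower in mTEC-III and Chrm5 higher. Chrm5 read 86.4 and 80.7 in mTEC-III, 41.8 and 44.1 in mTEC-I, 34.1 and 27.5 in mTEC-IV, and 18.8 and 19.6 in mTEC-II, so that it was also called lower in mTEC-II. Its log2 change in mTEC-III was 1.48 ± 0.22 (limma adjusted p = 1.14e-04), at a peak that the mTEC-III list alone holds.

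Of 7 serotonin receptor genes 2 were called higher in mTEC-I and 1 lower, and of 4 dopamine receptor genes 1 was called higher in mTEC-I and 2 lower in mTEC-III. Htr1f, a Gi-coupled serotonin receptor, read 75.8 and 70.5 in mTEC-I, while mTEC-II stood at 45.7 and 43.0, mTEC-III at 20.19 and 20.02, and mTEC-IV at 27.5 and 16.7. The 2 mTEC-I libraries stood clear of the rest, with a log2 change of 1.41 ± 0.25 (limma adjusted p = 3.89e-04). The authors' mTEC-I list does not hold this peak, and the mTEC-II list alone does. In mTEC-I replicate 2 a single tag is worth 5.88 units, so its 70.5 rests on few tags. Htr6 was also called higher there, at 90.5 and 76.4 beside 38.9 to 65.1. Drd5, a D1-like dopamine receptor, read 111 and 85.2 in mTEC-I beside 33.0 to 71.0 elsewhere, and the mTEC-II list alone holds its peaks too. Drd4, a D2-like receptor, was low in mTEC-III at 20.82 and 22.96 beside 52.9 to 91.1 in the other 6 libraries, a fall of 1.66 ± 0.19 (adjusted p = 1.10e-05).

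The calls were also split by where a peak lay. A peak was taken to lie over the start where the distance from its centre to the nearest listed start was within the peak's own extent, which held for 130 of the members' peaks and left 169 away from it. Over the start, 47 of 130 were called lower in mTEC-III (36.2%), beside 8.97% of all 13196 such peaks. Away from it the share was 16 of 169 (9.47%), close to the 9.43% of all 16273. The members' peaks over the start were weaker than such peaks at large, with a median level of 107 beside 164. Among peaks over the start with a mean level under that median of 164, 36 of 90 were called lower in mTEC-III (40%), beside 12.3%. Among peaks over the start that the authors' mTEC-III list also holds, the count was 30 of 95 (31.6%), beside 6.65%. Without mTEC-III replicate 1 the first of these counts was 18 of 130, beside 4.1%, and without replicate 2 it was 38, beside 8.01%.

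In mTEC-IV 30 of the 130 peaks over the start were called higher (23.1%), beside 8.51%. Away from the start 58 of 169 were called higher (34.3%), beside 29.3%, and among those in 2 or more of the authors' lists 11 of 59 (18.6%), beside 19%. The count over the start was 19 without mTEC-IV replicate 2, beside 5.16%, and 24 without replicate 1, beside 6.04%. Away from the start it was 29 of 153 without replicate 1, beside 16.3%, and 23 of 153 without replicate 2, beside 15.2%. The changes themselves were larger away from the start: the 58 peaks had a median log2 change of 2.34, and the 30 over the start 0.84. The mTEC-IV list alone holds 55 of the 169 peaks away from the start (32.5%, beside 23.3% of all such peaks). Over the start it alone holds 6 of the 130 (4.62%, beside 1.36%). The larger changes are therefore in part given by how the table was made, and no such medians over all peaks are given here. Of the members' peaks, 61 were in the mTEC-IV list alone (20.4%), beside 13.5% of all peaks.

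**Figure D4:**
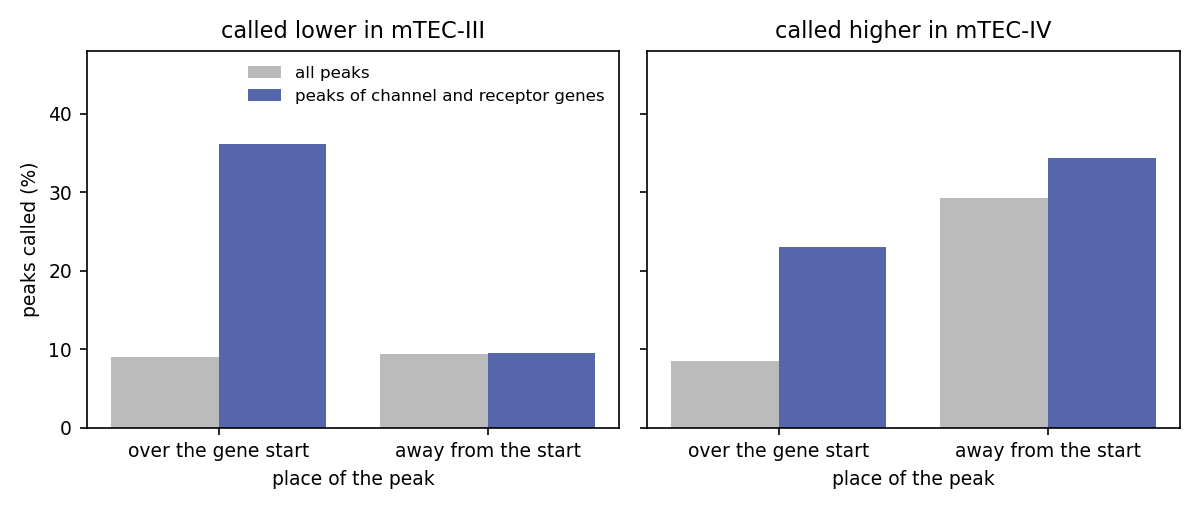
Share of peaks (%) called lower in mTEC-III (left) or higher in mTEC-IV (right), for peaks over a gene start and away from it, among the members' peaks (blue) and all peaks (grey). Lower calls in mTEC-III are 36.2% of the members' peaks over the start and 9.47% of those away from it.

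Many of the largest mTEC-IV changes were at single peaks inside or beyond a gene. Kcnq3 had 4 peaks. At 52.35 kb upstream, chr15:66168048-66172216, the level was 195 and 191 in mTEC-IV and 8.51 to 18.8 elsewhere, a log2 change of 3.89 ± 0.27 (limma adjusted p = 1.03e-06). At 45.72 kb downstream, in intron 1 (chr15:66069848-66074274), the order turned: 188 and 151 in mTEC-II, 35.3 to 71.2 in mTEC-I and mTEC-III, and 25.8 and 32.3 in mTEC-IV. At the start itself all 8 libraries lay between 214 and 371. Even so, 3 of the 4 peaks, the one at the start included, were called higher in mTEC-IV. In the authors' deposited table for mTEC-IV the upstream peak had a fold of 23.25 over control.

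Kcnj2 had larger contrasts at peaks away from its start than over it, and 7 of its 10 peaks were called higher in mTEC-IV. Over the start the level ran from 411 to 575 in the 8 libraries. There the authors' lists, each over its own peak extent, gave 560.3 in mTEC-IV and 365.9 to 387.1 in the other populations. The peak 8.29 kb downstream, at the end of the gene (chr11:110933790-110937744), read 244 and 258 in mTEC-IV beside 17.6 to 34.1 elsewhere. A peak 55.96 kb downstream read 108 and 98.0 beside 5.88 to 28.9. Kcnab2 read 119 and 130 in mTEC-IV beside 0 to 7.79 at a peak in intron 2 (chr4:151792109-151794835), while at its start mTEC-IV (115 and 144) overlapped mTEC-I (89.0 and 120). Scn2a1 had 3 peaks called higher in mTEC-IV, the farthest 49.52 kb downstream at 52.2 and 49.0 beside 0 to 4.71. Cacnb4, a calcium channel beta subunit, had different patterns over 2 listed starts: over one (chr2:52411729-52414881) mTEC-IV read 215 and 207 beside 0 to 15.5, and over the other mTEC-I was highest at 204 and 173 and mTEC-IV read 147 and 155.

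**Figure D5:**
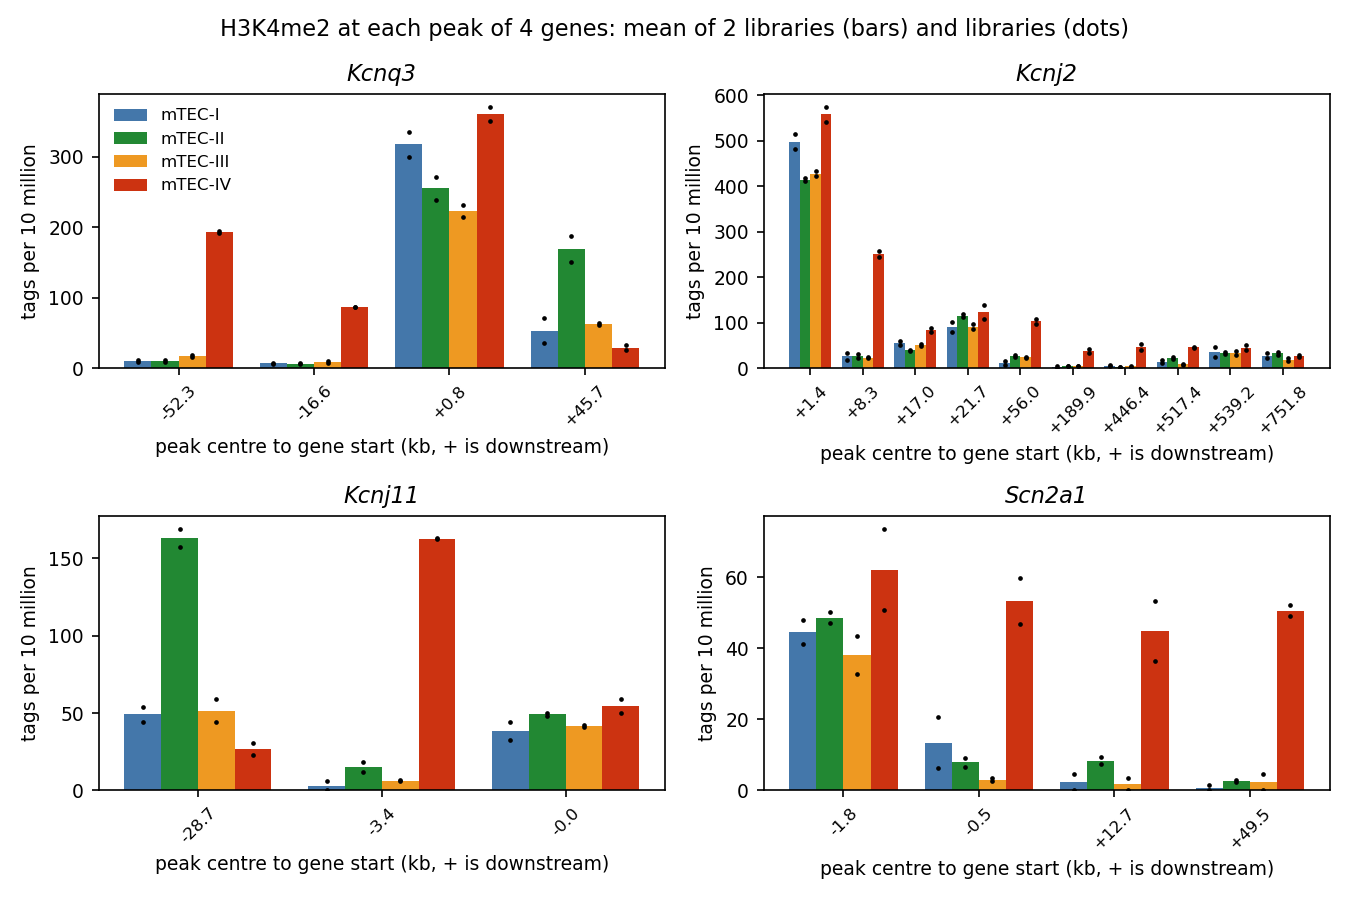
H3K4me2 (tags per 10000000) at every peak of Kcnq3, Kcnj2, Kcnj11 and Scn2a1, placed by the distance (kb) of the peak centre from the gene start, with bars for the mean of 2 libraries and dots for libraries. At Kcnq3 the peak 52.35 kb upstream is highest in mTEC-IV and the one 45.72 kb downstream is highest in mTEC-II.

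Of the 75 members with 2 or more peaks, 18 had peaks called higher in 2 or more different populations, and 11 had a peak called higher and another called lower in the same population. These are 24% and 14.7%, close to the 26.7% and 15.6% of all 6535 genes with as many peaks. Kcnj11 was an example: 28.72 kb upstream mTEC-II read 169 and 157 beside 23.1 to 58.9, and 3.42 kb upstream mTEC-IV read 162 and 163 beside 0 to 18.5. The mTEC-II list alone holds the first of these peaks and the mTEC-IV list alone the second, so their directions are in part given. Both peaks lie within or at the end of the neighbouring gene Abcc8, which encodes the sulfonylurea receptor that joins Kcnj11 in 1 channel. In all, 16 of the members' peaks lay inside another gene or at its start or end, among them both mTEC-IV peaks of Cacna1c, which lie in introns of Dcp1b. Which gene such a peak serves was not tested. For 11 of the 75 genes the distances are counted from more than 1 listed start.

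Other genes of the same pathways were counted by the same call, beside 10.7% of all genes lower in mTEC-III and 16.3% higher in mTEC-IV. Of 42 other cation channel genes measured of 62 listed, 8 were called lower in mTEC-III (19%) and 7 higher in mTEC-IV (16.7%). Of 27 other transmitter receptor genes of 38 listed, 7 were called lower in mTEC-III (25.9%) and 6 higher in mTEC-IV (22.2%). Of 24 genes for transmitter synthesis and transport of 34 listed, 5 were called lower in mTEC-III (20.8%) and 4 higher in mTEC-IV (16.7%), among them Slc18a3, the vesicular acetylcholine transporter, at 374 and 395 in mTEC-IV beside 13.9 to 68.8. Chloride channels had 3 of 17 called higher and 2 lower in mTEC-III, and 5 higher in mTEC-IV (29.4%). The mTEC-IV shares of the cation channels and of synthesis and transport lie at the background.

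Markers of cells that normally carry these genes were read beside them. Of 12 measured neuron markers of 14 listed, 3 were called lower in mTEC-III, 3 higher in mTEC-IV and 2 higher in mTEC-II, with sums of 2162 and 2412 in mTEC-III, 2862 and 2929 in mTEC-IV, 2833 and 2744 in mTEC-II and 2205 and 2306 in mTEC-I. Of 9 neuroendocrine markers of 12 listed, 3 were called higher in mTEC-II and 2 lower in mTEC-III. Their sums were 2052 and 2054 in mTEC-II and 1331 to 1813 elsewhere, and Chga was at 0 in 1 mTEC-I library. Nefm and Nefh had no peak, nor did Syp, Scg2 and Scg3. Of 7 endothelial markers of 8 listed 4 were called higher in mTEC-IV, where they summed to 1588 and 1574, and 2 were called lower in mTEC-III, where they summed to 684 and 774 beside 871 to 968 in mTEC-I and mTEC-II. Skeletal muscle had 2 of 12 listed markers with a peak, of which 1 was called higher and 1 lower in mTEC-IV. Antigen-presenting cells had 9 of 12, with 3 called higher in mTEC-III, 2 in mTEC-II and 2 in mTEC-IV. Lower calls among these 9 were 2 in mTEC-I and 2 in mTEC-IV. These lists and the tuft markers move with part of the calls, and their part in them was not tested.

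RefSeq's promoter table held 119 of the 162 genes, 91 of them with a single listed start. Over the 300-base window around the start (250 before, 50 after), members with a peak over the start had a median of 20 CpG and 64.3% GC (n = 71), beside 21 and 61.7% over all 7657 such genes. The 21 lower in mTEC-III there had a median of 20 CpG, and the 50 others 19.5. The medians of these groups lie close together. Searched on both strands, ATGCAAA was in 0 of the 71 windows, beside 3.54% of all such genes. Parts of the REST element, CAGCACC and GGACAGC, were in 8.45% and 9.86% of the 71, beside 7.46% and 7.74%. TATAAA was in 2.82%, beside 6.93%. A match is a description of the letters only.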

How the data were processed

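H3K4me2 signal was read from 1 table of merged peaks in 8 libraries; 8 samples of whole-cell extract were not used here. Per the file headers, the authors' table was made with HOMER and its values are a signal, in tags per 10000000 tags of each library. The deposited table also gives the authors' score for each peak, not used here. The deposited peak lists, 1 per population with replicates combined, give a signal, a ratio (fold) over control and a p-value against control, all the authors'. Tools named in the processing notes, per the labels, are Picard 1.108 and bcl2fastq 2.15.0.4, on build mm9. The aligner: not given in the sources used here.

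Peaks were assigned to genes as the authors annotated them, 2 mitochondrial peaks were left out, and levels were summed per gene. Features with 10 or more tags per 10000000 in 2 or more libraries entered limma 3.58.1 (limma-trend, R 4.3.3) on log2(value + 1), a scale that understates changes of low features, with all 8 libraries in 1 fit (4 residual degrees of freedom) and Benjamini-Hochberg adjustment over all 15738 genes or 29469 peaks. In each library 100% of values came out as whole steps of 0.5 tags, within 0.1 tags, so edgeR 4.0.16 and, for genes, DESeq2 1.42.0 were run on those steps, with 1 step as 1 count, as alternatives; they gave 134 and 127 genes that differ. The fit was tested on simulated data. It shares 1 spread per feature among populations, but replicates did not scatter equally. Over member genes the standard deviation of the log2 difference between replicates was 0.619 in mTEC-I and 0.198 in mTEC-II. In mTEC-III it was 0.298 and in mTEC-IV 0.332. The SE and p can therefore be too small for mTEC-I and too large for mTEC-II. Named genes were, per population, up to 6 members called higher and 3 lower with the largest change, and for a family without any its smallest F test p; other genes were named after their values were seen, as examples, and a few members are not reported here by name. Members, lists and comparisons were chosen with earlier results of these data known, and the split by peak place was added after the data were seen. Genes that lie close together can share peaks. Replicate numbers did not pair the libraries: the 6 correlations of replicate differences between populations lay between -0.0071 and 0.0358 over genes.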

Additional observations from a re-analysis of the deposited data

How the results depend on the processing

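With 1 library left out, 106 to 137 member genes differed; 21 to 37 were higher and 20 to 40 lower in mTEC-I, 8 to 25 and 2 to 5 in mTEC-II, 4 to 8 and 30 to 58 in mTEC-III, and 31 to 46 and 11 to 16 in mTEC-IV. Over peaks, 43 to 89 were lower in mTEC-I, 7 to 48 higher and 0 to 14 lower in mTEC-II, 7 to 16 and 25 to 78 in mTEC-III, and 42 to 101 higher in mTEC-IV. Over the start, 18 to 55 were lower in mTEC-III and 19 to 36 higher in mTEC-IV, and away from it 23 to 65 were higher in mTEC-IV. The shares over all genes or peaks also moved with the library left out, as given above for several of these counts, so the ranges are not particular to the members. Where a population has 1 library left, that library is assumed to vary like the others. The 0 was limma's count of lower peaks in mTEC-II without either mTEC-II library.

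With peaks within 1 kb of a start alone, which leaves 116 member genes, 80 differed (beside 35% of all genes under that setting), 14 were lower in mTEC-I (5.21%), 8 higher and 1 lower in mTEC-II (1.8% and 3.21%), 1 higher in mTEC-III (5.81%), and 25 higher and 4 lower in mTEC-IV (6.12% and 4.18%). With the replicate number as a block 120 genes differed, all among the 123 without it, and no count over all members moved by more than 1.5 times. Nor did one under edgeR, DESeq2, another scaling, a pseudocount of 5 or no filter. Of the named genes' changes none reversed in the alternatives run, and Cacna1i, Kcnh5, Kcnmb4os1, Grik3, Cacng7, Kcnk5, Cacna2d4 and Kcng1 lost a call in at least 1. Depth limits mTEC-I most, since its replicate 2 has the fewest tags.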
